A study of Rattus norvegicus with 8 samples.

Results

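Rat H9C2 cardiomyoblasts, an established line from the embryonic heart, received pDC316 vectors that carry YFP fused to PPARα and were kept for 2 days. The comparison described here sets the phospho-resistant receptor, in which serine 280 is replaced by alanine (S280A, 2 libraries), against the wild-type receptor (WT, 2 libraries). These 4 libraries were taken from the 8 of the study by their titles, and all genes of the count table were examined in them. The other 4 libraries were 2 with YFP alone and 2 with the phospho-mimicking receptor (S280D). They entered the filter on low counts, the scaling and the estimate of the spread, and some of their values are printed for reference. All 4 libraries compared carry a delivered YFP-tagged PPARα on top of the cells' own receptor, so both groups share the tag and differ in 1 residue of the delivered protein. All cells are 1 line, and no label states whether the replicates of a construct were separate cultures. The p-values below therefore measure only the spread between these libraries, which may be technical. Replicate 2 of WT carries the number 2 in its title and 3 in its description.

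PPARα is a nuclear receptor that binds DNA as a heterodimer with RXR and, with a fatty acid or fibrate ligand, recruits coactivators to genes of fatty acid uptake, peroxisomal and mitochondrial oxidation and ketogenesis. It can also restrain inflammatory gene expression by interfering with factors such as NF-κB and AP-1, without binding its own DNA element. Serine 280 lies in the ligand-binding domain of the receptor and is known as a target of the kinase GSK-3α. The comparison addresses which transcripts differ when this site cannot be phosphorylated.

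The amount of receptor mRNA did not differ between the groups beyond the spread. Ppara (chromosome 7, 126619196 to 126681752, Rnor_6.0) stood at 12382 and 24134 CPM (exon reads scaled to library size) in WT and at 17400 and 13736 CPM in S280A. With YFP alone it was at 74.4 and 59.5 CPM, so nearly all of these reads came with the delivered receptor, which is counted together with the cells' own. The S280A values lay between the 2 WT values, and the log2 difference of -0.23 ± 0.25 (SE) did not pass (adjusted p = 0.516, 95% interval -0.78 to 0.32). Here and below a log2 difference is S280A minus WT, adjusted p-values are from edgeR's quasi-likelihood test with Benjamini-Hochberg adjustment over all 12407 genes tested, and a gene is said to rise or fall only at an adjusted p under 0.05.

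The 4 libraries held 14018785 to 19229424 exon reads, and of these 4 S280A replicate 2 lay furthest from WT. Both WT libraries and S280A replicate 1 were read in lane 2, and S280A replicate 2 in lane 1. On the first principal component of all 8 libraries WT scored 31.6 and 20.7, S280A replicate 1 -19.9 and S280A replicate 2 -51.0. YFP scored -40.4 and -16.4, both in lane 1, and S280D 47.5 in lane 1 and 27.9 in lane 2. Across genes, the Spearman's rho of exon length with a library's deviation from the average was 0.129 and 0.158 for WT and -0.140 and -0.232 for S280A. Genes are not independent replicates, so these are descriptions. All libraries gave 3226 calls. Without S280A replicate 2 or without WT replicate 1 the test called very few genes, and without WT replicate 2 fewer than with all. Without S280A replicate 1, where S280A replicate 2 alone stands for the construct, it called more. With only the lane 2 libraries it called 1704, 397 higher and 1307 lower, a fit with 1 S280A library that is assumed to vary like WT. With lane as a covariate it called 993. The number of calls therefore depends on which libraries are kept, most of all on S280A replicate 2 and WT replicate 1. A fit without 1 of the compared libraries keeps 1 library in that group, and the cause of the changed counts was not tested. Each list is given with its median without S280A replicate 2 beside it.

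H9C2 cells are labelled cardiomyoblasts, and their markers were checked. Of 10 cardiomyocyte markers 4 passed the filter on low counts. Tnnt2, cardiac troponin T, stood at 129 and 165 CPM in WT and 208 and 222 CPM in S280A, while Tnni3 and Ryr2 were at 2.56 CPM or less in each of the 4. The markers Myh6, Nppa and Myl2 did not pass the filter on low counts. The 8 fibroblast markers summed to 45887 and 52315 CPM in WT and to 64081 and 74767 CPM in S280A. The measured smooth muscle markers summed to 9730 and 10327 CPM in WT and to 13202 and 17411 CPM in S280A. Macrophage and adipocyte markers summed to 1.43 CPM or less in each of the 4 libraries, and endothelial markers to 1.79 CPM or less. The cardiomyocyte sums were 132 and 170 CPM in WT and 211 and 225 CPM in S280A. The skeletal myoblast sums were 8.25 and 11.1 CPM against 16.9 and 15.2 CPM, and the epithelial sums 13.7 and 14.1 CPM against 19.6 and 21.3 CPM. The sums of these 5 marker lists thus were all higher in both S280A libraries, but the members did not all go that way. Of 4 cardiomyocyte markers tested, 2 had positive and 2 negative log2 differences (median -0.15), and Tnnt2 made up most of the sums. Of 4 skeletal myoblast markers tested, 2 were positive and 2 negative (median 0.28). Of 7 fibroblast markers tested 7 were positive, and of 4 smooth muscle markers 3. The part of these markers in the other differences was not tested. In bulk RNA, fewer cells of a type and less RNA per cell cannot be told apart.

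The S280A and WT libraries differed in many genes, most by less than 2-fold. Of the genes tested, 3226 passed (26.0%), of which 1250 were higher in S280A (10.1% of all tested) and 1976 lower (15.9%). The counts and shares of each list below are to be read beside these shares. The median size among those that rose was 0.54 on the log2 scale, and among those that fell 0.90. Changes of at least 2-fold numbered 61 upward and 766 downward, and changes of at least 4-fold 6 and 45. With an added threshold of 1.5-fold built into the test, 20 genes were called, 19 of them lower. Both S280A libraries lay above both WT libraries for 34.6% of all genes and below them for 35.2%, so groups that do not overlap are common in these libraries. The authors' deposited table calls 2661 genes for this pair, 913 higher and 1748 lower, and 2568 genes were called in both, all in the same direction.

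**Figure D1:**
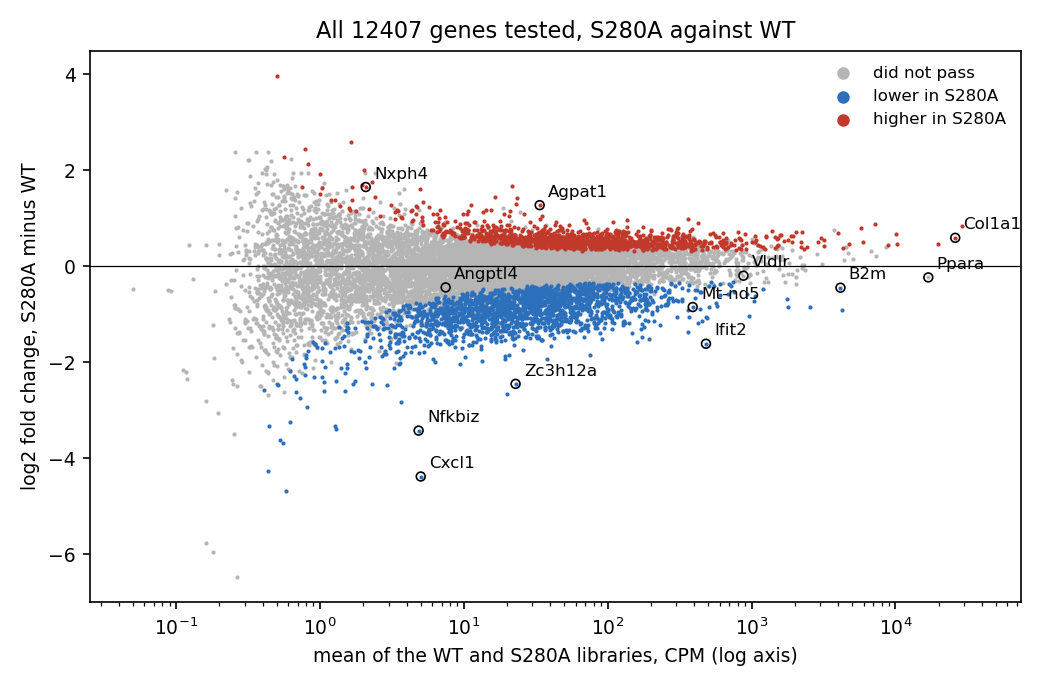
Log2 fold change, S280A minus WT (vertical axis), against the mean CPM of the 4 WT and S280A libraries (horizontal axis, log scale) for all 12407 genes tested. Red points rose, blue points fell and grey points did not pass; circles mark named genes, with Cxcl1 at -4.38 and Nfkbiz at -3.42 far below 0 and Ppara near 0.

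The genes that stayed called when S280A replicate 2 or WT replicate 1 was left out were few. Each of these fits keeps 1 library in a group, and the values do not mark WT replicate 1 as faulty. Cxcl1, Ddx60, Ifit2, Zc3h12a and LOC685067, all lower in S280A, were called both without S280A replicate 2 and without WT replicate 1. Agpat1, higher, was called in the first of these fits only. Nfkbiz, lower, and Aldh18a1, higher, were called in the second only. LOC685067 has no assigned symbol, and it, Ddx60 and Aldh18a1 are named here after their values were seen. LOC685067 stood at 29.8 and 31.1 CPM in WT and 8.99 and 6.84 CPM in S280A. Aldh18a1 had 0.0926% unique exon reads and could not be tested on unique reads, so its value is uncertain.

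The promoters of 4 genes that fell are shown because their letters match elements through which NF-κB and interferon-activated factors are known to act. They were chosen after the values were seen. Each stretch is the 120 bases before the transcription start in the RefSeq table of assembly GRCr8, 5′ to 3′ on the gene's strand. Cxcl1 is at chr14:17479322-17479441 (minus strand), Nfkbiz at chr11:58251601-58251720 (plus strand), Ddx60 at chr16:33208840-33208959 (minus strand) and Ifih1 at chr3:67683969-67684088 (minus strand). In the first 2, capitals mark a κB match, GGGNNTTTCC or its reverse complement. In the last 2, capitals mark the core of an interferon-stimulated response element (ISRE), GAAANNGAAA or its reverse complement.
Cxcl1: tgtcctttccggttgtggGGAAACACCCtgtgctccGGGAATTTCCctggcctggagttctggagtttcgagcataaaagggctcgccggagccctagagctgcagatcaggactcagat
Nfkbiz: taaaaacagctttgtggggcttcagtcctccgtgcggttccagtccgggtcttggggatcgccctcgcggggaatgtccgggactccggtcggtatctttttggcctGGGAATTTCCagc
Ddx60: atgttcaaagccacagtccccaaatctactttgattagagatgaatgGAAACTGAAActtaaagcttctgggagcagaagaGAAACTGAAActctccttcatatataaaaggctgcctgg
Ifih1: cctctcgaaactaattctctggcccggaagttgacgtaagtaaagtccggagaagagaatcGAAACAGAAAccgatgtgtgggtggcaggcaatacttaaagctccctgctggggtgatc

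Counted from the start, where -1 is the base before it, the κB matches begin at -102 and -84 in Cxcl1 and at -13 in Nfkbiz. The ISRE matches begin at -73 and -39 in Ddx60 and at -59 in Ifih1. Over the 250 bases before the start, on both strands, the κB letters were found in 1.30% of all 33469 promoter entries and the ISRE letters in 3.41%. The promoters of Zc3h12a, Ptgs2 and Ccl7, which also fell, held no κB match in this window. Nfkbia, with a κB match at -31, and Irf7, with an ISRE match at -69, did not pass. A match is a description of the sequence and not evidence of a bound factor.

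Some cytokine and NF-κB genes fell with S280A, and none of the list rose. Of 42 tested members 14 fell, 0 rose and 28 did not pass (33.3% passed, where 26.0% of all genes passed and 15.9% fell). The median log2 difference was -0.42, against 0.01 for all genes tested. Without S280A replicate 2 the median was -0.45. The largest fall was in Cxcl1, a chemokine that attracts neutrophils (chromosome 14, 18743685 to 18745457). Cxcl1 stood at 8.40 and 10.7 CPM in WT and at 0.211 and 0.725 CPM in S280A. The groups lay far apart, and the log2 difference was -4.38 ± 0.48 (SE, adjusted p = 0.00333). The YFP libraries, at 0.351 and 0.358 CPM, and the S280D libraries, at 0.943 and 0.501 CPM, were as low as S280A, so the 2 WT libraries were the only ones of the 8 with more than 1 CPM.

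Nfkbiz and Zc3h12a showed the same arrangement of libraries. Nfkbiz, which encodes IκBζ, a nuclear cofactor of NF-κB, stood at 8.40 and 9.36 CPM in WT and 0.913 and 0.725 CPM in S280A (log2 difference -3.42 ± 0.39, adjusted p = 0.00333). Zc3h12a encodes the ribonuclease regnase-1, which degrades cytokine mRNA. It stood at 35.1 and 42.3 CPM in WT and 7.93 and 6.20 CPM in S280A (log2 difference -2.45 ± 0.25, adjusted p = 0.00245). In the YFP and S280D libraries Nfkbiz was at 0.468 to 1.64 CPM and Zc3h12a at 6.38 to 10.6 CPM.

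Genes of prostaglandin synthesis and pathogen sensing fell less. Ptgs2, the inducible cyclooxygenase, was at 47.4 and 49.9 CPM in WT and 27.0 and 19.2 CPM in S280A, with 58.3 and 50.2 CPM in S280D (log2 difference -1.07 ± 0.22, adjusted p = 0.00988). The endotoxin receptor Tlr4 was at 13.4 and 11.4 CPM in WT and 4.77 and 5.15 CPM in S280A, and fell by 1.32 ± 0.24 on the log2 scale. Ripk2, a kinase of intracellular pattern recognition, fell by 0.74 ± 0.12. The monocyte chemokine gene Ccl7 was at 1.95 and 2.62 CPM in WT and 0.562 and 0.483 CPM in S280A, and fell by 2.11 ± 0.60. Nfkbia, the feedback inhibitor of NF-κB, is named as the gene most often used to read this pathway, chosen after its values were seen. Its log2 difference was -0.40 ± 0.15 and did not pass (adjusted p = 0.0621). The NF-κB subunits Rela (0.24 ± 0.14) and Nfkb1 (-0.29 ± 0.15) did not pass either (adjusted p = 0.218 and 0.152). Of the 12 members that fell and have a promoter entry, 4 held the κB letters, against 7 of 34 over all tested members with an entry and 1.55% of all tested genes with an entry.

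**Figure D2:**
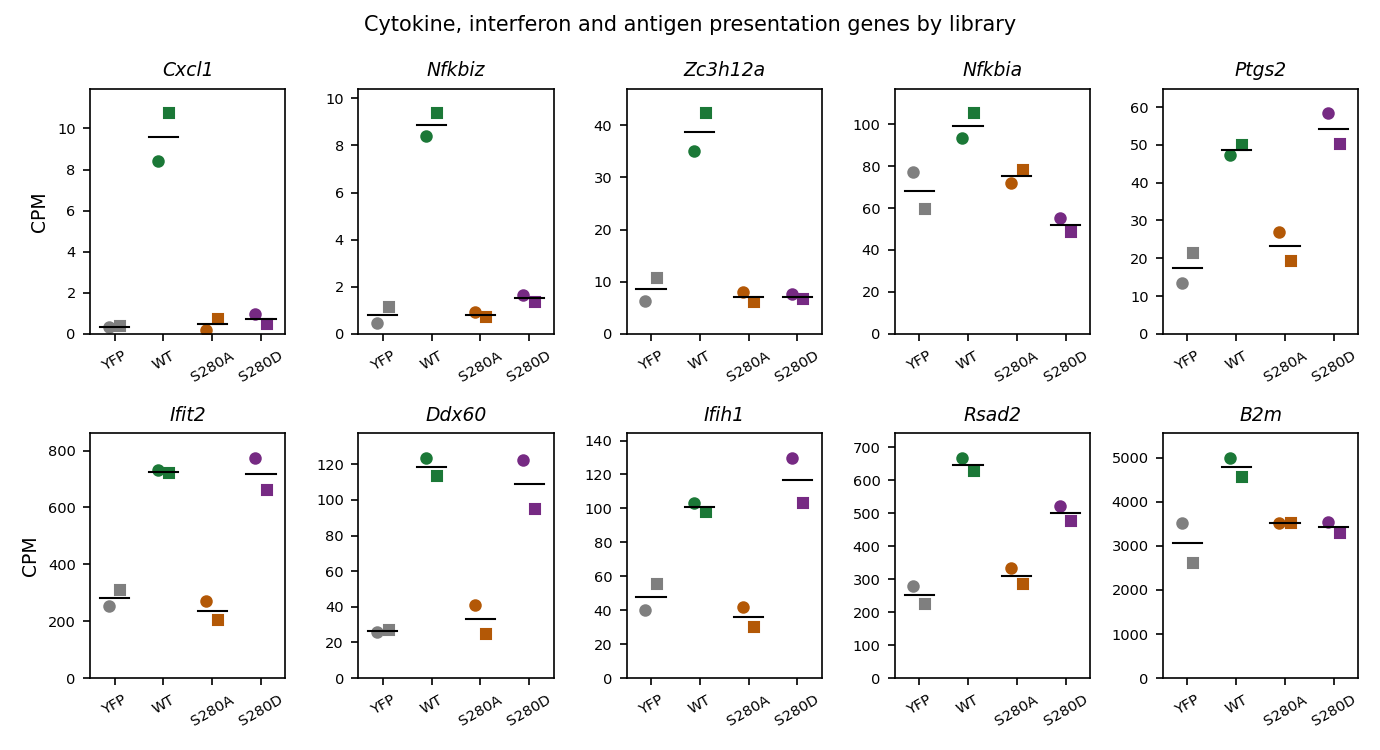
CPM of 10 cytokine, interferon and antigen presentation genes in each library (vertical axis, linear, from 0) by construct (horizontal axis). Replicate 1 is a circle, replicate 2 a square, and a line marks each group's mean; Cxcl1, Nfkbiz and Zc3h12a are high in WT only, while Ptgs2, Ifit2, Ddx60 and Ifih1 are high in WT and S280D.

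Interferon response genes split into a part that fell and a larger part that did not pass. Of 51 tested members 1 rose, 17 fell and 33 did not pass (35.3% passed, against 26.0% of all genes). The median was -0.21, and -0.29 without S280A replicate 2. Ifit2, an RNA-binding antiviral protein (chromosome 1, 252894663 to 252900726), stood at 730 and 722 CPM in WT and at 272 and 203 CPM in S280A. This is a log2 difference of -1.61 ± 0.16 (adjusted p = 0.00245). The YFP libraries were near S280A, at 254 and 310 CPM, and the S280D libraries near WT, at 775 and 660 CPM.

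Sensors of double-stranded RNA were among the members that fell. Ifih1, which encodes the cytosolic RNA sensor MDA5, was at 103 and 98.1 CPM in WT and 41.8 and 30.4 CPM in S280A, a log2 difference of -1.48 ± 0.19. The kinase Eif2ak2 (PKR), which halts translation on double-stranded RNA, was at 643 and 538 CPM in WT and 286 and 232 CPM in S280A. Its log2 difference was -1.19 ± 0.17. Ddx60, a helicase linked to RNA sensing that is not on the list, was at 124 and 114 CPM in WT and 41.3 and 24.9 CPM in S280A, and fell by 1.84 ± 0.21.

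Antiviral effectors fell as well. Rsad2 (viperin) was at 668 and 626 CPM in WT and 334 and 286 CPM in S280A, a log2 difference of -1.06 ± 0.14. The guanylate-binding protein gene Gbp5 fell by 1.37 ± 0.18, the ligase gene Herc6 by 1.47 ± 0.21 and Ifit3 by 0.84 ± 0.14. The 1 member that rose was Ifi35 (0.60 ± 0.20, adjusted p = 0.0493).

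Several of the most widely used interferon-stimulated genes did not pass. The log2 difference was 0.12 ± 0.14 for Isg15, -0.17 ± 0.15 for Ifit1, -0.36 ± 0.16 for Mx1 and 0.13 ± 0.19 for Irf7, and these 4 were chosen after the values were seen. Their 95% intervals ran from -0.18 to 0.42, from -0.50 to 0.16, from -0.71 to -0.01 and from -0.28 to 0.54. The upstream factors Stat2 (0.20 ± 0.15) and Irf9 (0.16 ± 0.12) did not pass. Among the 16 members that fell and have a promoter entry, 12 held the ISRE letters, against 18 of 38 over all tested members with an entry and 2.86% of all tested genes with one.

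In class I antigen presentation 1 of 22 tested members rose and 3 fell (18.2% passed, against 26.0% of all genes). The median was -0.09 (-0.15 without S280A replicate 2). B2m, the invariant light chain of class I molecules, was at 5000 and 4561 CPM in WT and 3519 and 3509 CPM in S280A (log2 difference -0.44 ± 0.15, adjusted p = 0.0464), and S280D stood at 3549 and 3287 CPM. The heavy chain genes RT1-A2 (-0.96 ± 0.22) and RT1-CE7 (-0.41 ± 0.13) fell too. Only 19.5% and 18.2% of their reads were unique, so they are uncertain, and RT1-CE7 was not called on unique reads. With an offset for exon length (described with the length classes), B2m did not pass (-0.41, adjusted p = 0.0739) and the list's median was 0.03, on the other side of 0.

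Few established PPAR targets passed. Of 34 tested, 4 rose and 0 fell (11.8% passed, where 26.0% of all genes passed and 10.1% rose). Their median was 0.12, or 0.14 without S280A replicate 2. Those that rose were Fads2, the delta-6 desaturase (0.80 ± 0.16, adjusted p = 0.0102), Ucp2, a mitochondrial carrier (0.68 ± 0.17, adjusted p = 0.0162), and the isomerases of unsaturated fatty acid oxidation Ech1 (0.66 ± 0.19) and Eci1 (0.49 ± 0.15). Ucp2 stood at 22.8 and 29.9 CPM in WT and 39.6 and 44.9 CPM in S280A. The YFP libraries, at 23.5 and 24.1 CPM, were as low as the lower WT library.

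The targets used most often as reporters of the receptor did not pass. Angptl4, a secreted inhibitor of lipoprotein lipase, was at 7.60 and 9.65 CPM in WT and 7.72 and 4.91 CPM in S280A. The groups overlapped, and the log2 difference was -0.44 ± 0.27 (adjusted p = 0.24, 95% interval -1.03 to 0.15). It stood at 3.34 and 1.99 CPM with YFP alone. Cpt1b, the muscle enzyme that admits fatty acids to mitochondria, was at 7.45 and 8.70 CPM in WT and 5.97 and 5.07 CPM in S280A. Its groups did not overlap, but the difference of -0.54 ± 0.21 did not pass (adjusted p = 0.0797).

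Pdk4, Cd36, Ucp3 and the coactivator gene Ppargc1a had at most 8 reads in any WT or S280A library and were not tested. At this depth a difference in these 4 genes was not detectable.

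Few mitochondrial and peroxisomal oxidation genes passed. In the mitochondrial list of 28 tested, 2 rose and 1 fell (10.7% passed, against 26.0% of all genes), with a median of 0.13 (0.14 without S280A replicate 2). Acads, the short-chain acyl-CoA dehydrogenase, rose by 0.62 ± 0.18, and Etfa, which passes electrons from these dehydrogenases, fell by 0.61 ± 0.18. In the peroxisomal list of 28, 3 rose and 3 fell (21.4% passed), with a median of 0.08 (0.12 without S280A replicate 2). The biogenesis factor Pex16 (0.63 ± 0.18) was among those that rose, while the carnitine transferase Crot (-0.86 ± 0.20), the transporter Abcd3 (-0.58 ± 0.17) and catalase, Cat (-0.69 ± 0.23), fell. Without S280A replicate 1 the peroxisomal median was -0.03, and with the exon length offset Abcd3 did not pass (adjusted p = 0.0589).

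Lipoprotein receptors and fatty acid uptake came next. Vldlr, the receptor for triglyceride-rich lipoproteins, was at 950 and 923 CPM in WT and 826 and 812 CPM in S280A. Both S280A libraries were lower, but the log2 difference of -0.19 ± 0.11 did not pass (adjusted p = 0.188, 95% interval -0.43 to 0.04). The YFP libraries were at 888 and 933 CPM and S280D at 1018 and 999 CPM.

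Over the whole list of receptors and fatty acid uptake, 7 of 33 rose and 3 fell (30.3% passed, against 26.0% of all genes). The median was 0.08 (0.06 without S280A replicate 2). The caveolar genes did not move together. Ehd2 (0.70 ± 0.12), Cav3 (0.74 ± 0.19) and Prkcdbp, also called cavin-3 (0.56 ± 0.14), rose, and Cav2 fell from 48.4 and 42.5 CPM to 23.0 and 14.5 CPM (-1.27 ± 0.19). YFP libraries had less Cav2 still, 7.61 and 7.31 CPM. The acyl-CoA synthetase Acsl4, which prefers arachidonate, fell by 1.19 ± 0.20, and the fatty acid transport protein gene Slc27a4 rose by 0.50 ± 0.15.

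**Figure D3:**
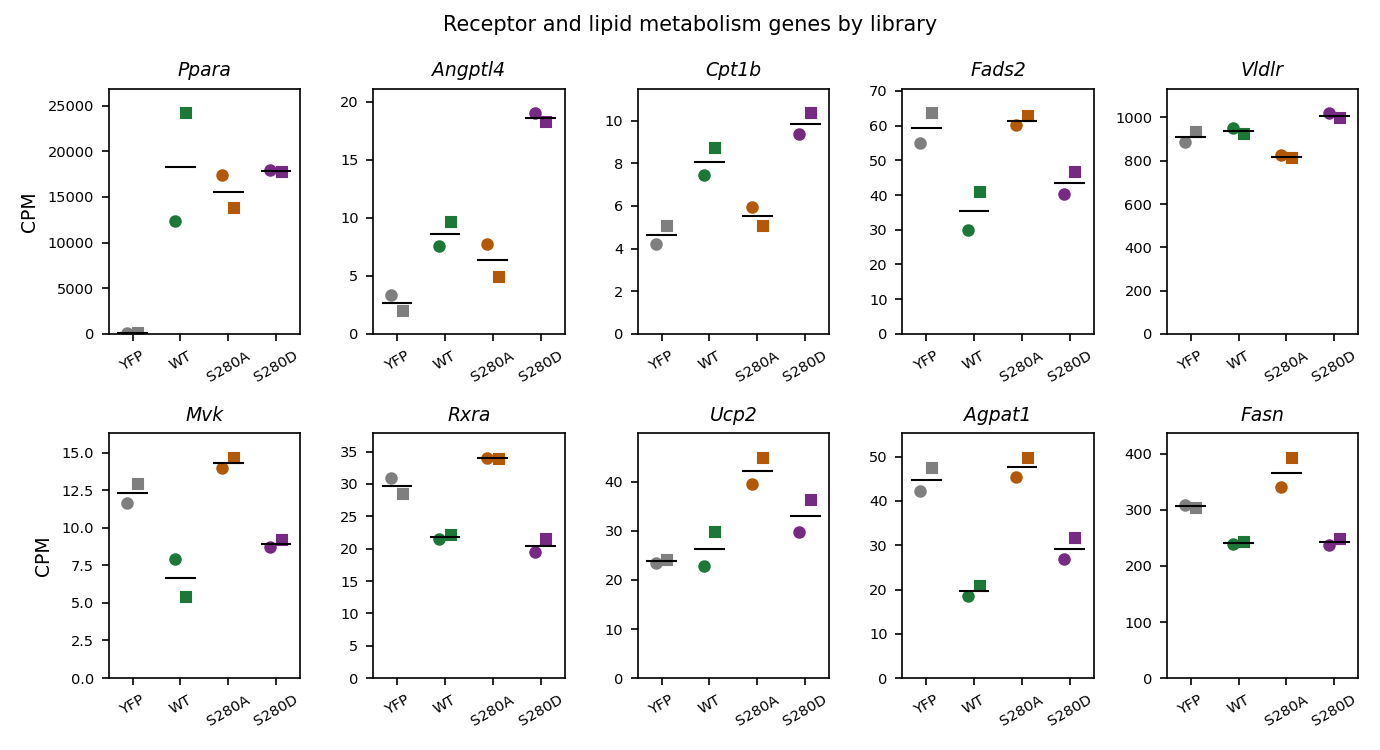
CPM of Ppara and 9 other genes of lipid metabolism in each library (vertical axis, linear, from 0) by construct (horizontal axis). Replicate 1 is a circle, replicate 2 a square, and a line marks each group's mean; Angptl4 overlaps between WT and S280A, and Fads2, Mvk, Rxra, Ucp2, Agpat1 and Fasn are higher in both S280A libraries.

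Genes that make and store lipid had positive medians. Of 26 genes of triglyceride metabolism 6 rose and 0 fell (23.1% passed, where 26.0% of all genes passed and 10.1% rose). The median was 0.22, or 0.19 without S280A replicate 2. Agpat1, which makes phosphatidic acid (chromosome 20, 4369178 to 4378269), went from 18.5 and 20.9 CPM to 45.4 and 49.8 CPM, a log2 difference of 1.27 ± 0.15 (adjusted p = 0.00333). Of its reads 16.3% were unique, and it was also called on these. Mgll, the monoacylglycerol lipase, rose by 0.87 ± 0.18, and the lipid droplet genes Fitm2 (0.64 ± 0.16) and Plin3 (0.53 ± 0.16) and the acyltransferase Dgat2 (0.45 ± 0.14) rose.

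In fatty acid synthesis 5 of 15 rose and 0 fell (33.3% passed, where 26.0% of all genes passed and 10.1% rose). The median was 0.39, or 0.30 without S280A replicate 2. Fasn, fatty acid synthase, was at 239 and 242 CPM in WT and 340 and 393 CPM in S280A, a log2 difference of 0.61 ± 0.11. The desaturase Fads1 (0.46 ± 0.11) and the transcription factor Srebf1 (0.46 ± 0.13) rose with it.

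Cholesterol synthesis had the highest median of the lists. Of 30 tested members 12 rose and 1 fell (43.3% passed, against 26.0% of all genes). The median was 0.45, or 0.39 without S280A replicate 2. Mvk, mevalonate kinase, was at 7.95 and 5.36 CPM in WT and 14.0 and 14.7 CPM in S280A (1.10 ± 0.21). Fdps (0.67 ± 0.13), Lss (0.64 ± 0.15) and Srebf2 (0.48 ± 0.11), the factor that controls the pathway, also rose. Ggps1, which branches off to geranylgeranyl groups, fell by 0.99 ± 0.20. Mvk stood at 11.7 and 12.9 CPM with YFP alone and at 8.73 and 9.15 CPM in S280D.

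Central carbon metabolism had positive medians too. Of 35 genes of glucose uptake and glycolysis 8 rose and 1 fell (25.7% passed, where 26.0% of all genes passed and 10.1% rose). Their median was 0.25, or 0.18 without S280A replicate 2. Gpi, the second enzyme of glycolysis, went from 93.3 and 98.9 CPM to 149 and 168 CPM (0.72 ± 0.13, adjusted p = 0.00821). Pfkm, muscle phosphofructokinase (0.58 ± 0.13), and Aldoa (0.69 ± 0.18) rose, and Pdk3, which inhibits pyruvate dehydrogenase, fell by 0.48 ± 0.15, a call lost with the exon length offset (adjusted p = 0.0712). In the TCA cycle 6 of 23 rose and 2 fell (34.8% passed), with a median of 0.18, or 0.14 without S280A replicate 2. Among them were Mdh2 (0.59 ± 0.14) and Idh2 (0.57 ± 0.15) upward and Dld (-0.64 ± 0.18) and Sucla2 (-0.75 ± 0.22) downward.

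Respiratory chain genes that passed were mostly higher when encoded in the nucleus, and all lower when encoded in mitochondria. Of 65 nuclear subunits tested 22 rose, 1 fell and 42 did not pass (35.4% passed, where 26.0% of all genes passed and 10.1% rose). Their median was 0.33, or 0.26 without S280A replicate 2. Ndufa11, of complex I, was at 14.7 and 13.8 CPM in WT and 23.0 and 25.5 CPM in S280A (0.76 ± 0.15), and Atp5b, the catalytic subunit of ATP synthase, rose by 0.54 ± 0.13. Of the 13 protein-coding genes of the mitochondrial genome 0 rose and 11 fell, with a median of -0.85, or -0.56 without S280A replicate 2. Mt-co1, the catalytic subunit of cytochrome oxidase, was at 6063 and 5018 CPM in WT and 3435 and 2462 CPM in S280A (-0.91 ± 0.17), and Mt-cytb fell by 1.15 ± 0.21. All mitochondrial features together took 1.37% and 1.17% of exon reads in WT and 0.791% and 0.490% in S280A. The sign of each median held in every setting tried.

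**Figure D4:**
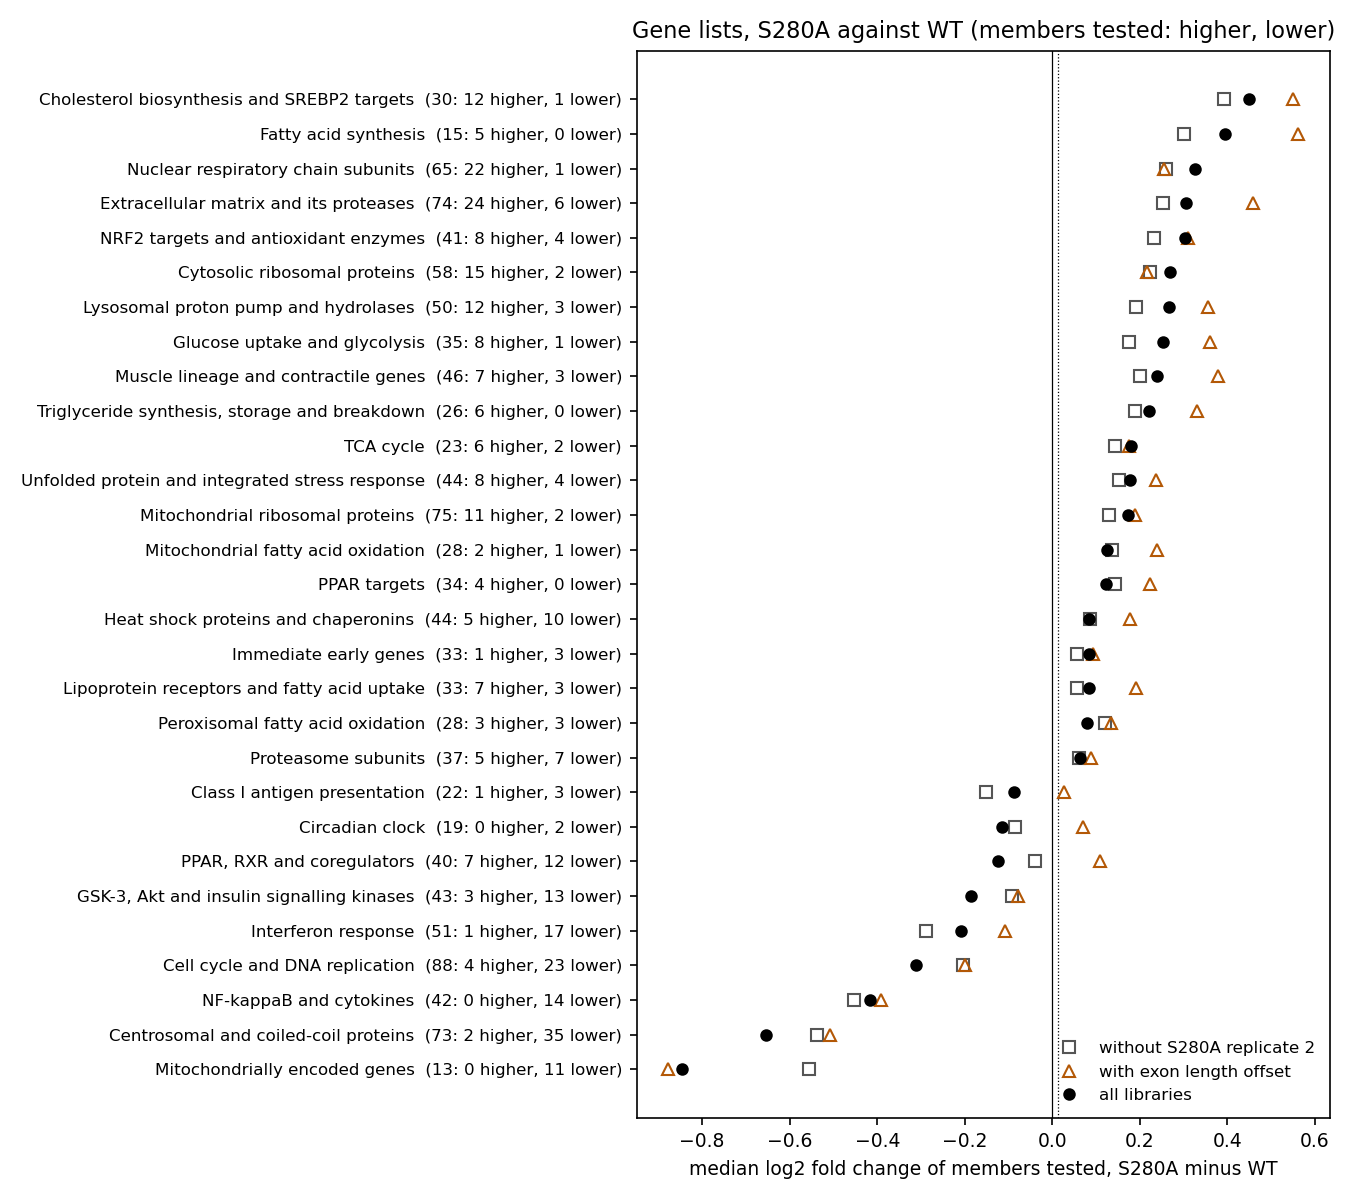
Median log2 fold change, S280A minus WT (horizontal axis), of the tested members of each gene list (vertical axis), with the number tested and the numbers higher and lower. Filled circles use all libraries, squares leave out S280A replicate 2 and triangles use the exon length offset; the dotted line is the median of all genes, and only class I presentation, the clock and the coregulators lie on both sides of 0.

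Among genes of dividing cells more fell than rose, and most did not pass. Of 88 cell cycle and replication genes 4 rose, 23 fell and 61 did not pass (30.7% passed, against 26.0% of all genes), with a median of -0.31, or -0.20 without S280A replicate 2. Mki67, the proliferation marker, was at 95.8 and 90.1 CPM in WT and 48.5 and 25.3 CPM in S280A (-1.33 ± 0.28, adjusted p = 0.0109). The condensin genes Smc2 (-1.54 ± 0.29), Smc4 (-1.30 ± 0.25) and Ncapg (-1.63 ± 0.34) and the kinetochore motor Cenpe (-1.40 ± 0.24) fell. Cdkn1a, which encodes the cell cycle inhibitor p21, rose by 0.47 ± 0.14, as did Ccnd3 (0.48 ± 0.14) and Cdk4 (0.48 ± 0.14).

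Centrosomal and coiled-coil genes had the lowest median after the mitochondrial genes. Of 73 tested 2 rose and 35 fell (50.7% passed, against 26.0% of all genes). The median was -0.65, or -0.54 without S280A replicate 2. The Golgi and centrosome proteins Trip11 (-1.29 ± 0.22), Golga4 (-1.07 ± 0.22) and Pcm1 (-1.14 ± 0.23) fell. The median exon length of this list was 3561 bases, against 2314 over all genes, and with the exon length offset its median was -0.51.

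The calls as a whole moved with exon length. In 5 classes of equal size by length, genes had median log2 differences of 0.15, 0.10, 0.03, -0.05 and -0.20 from the shortest to the longest. In the shortest class (135 to 1300 bases) 6.77% fell, and in the longest (4002 to 29464 bases) 29.3% fell, while those that rose were 10.5% and 8.26%. An offset fitted to each library on exon length moved the median of all genes to 0.10 and the calls to 2049 higher and 1659 lower. The share of calls that were lower went from 61.3% to 44.7%. Intron reads, counted over the same classes, had medians between -0.07 and 0.00. Whether the gradient is a property of the RNA, the library or the cells was not tested.

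**Figure D5:**
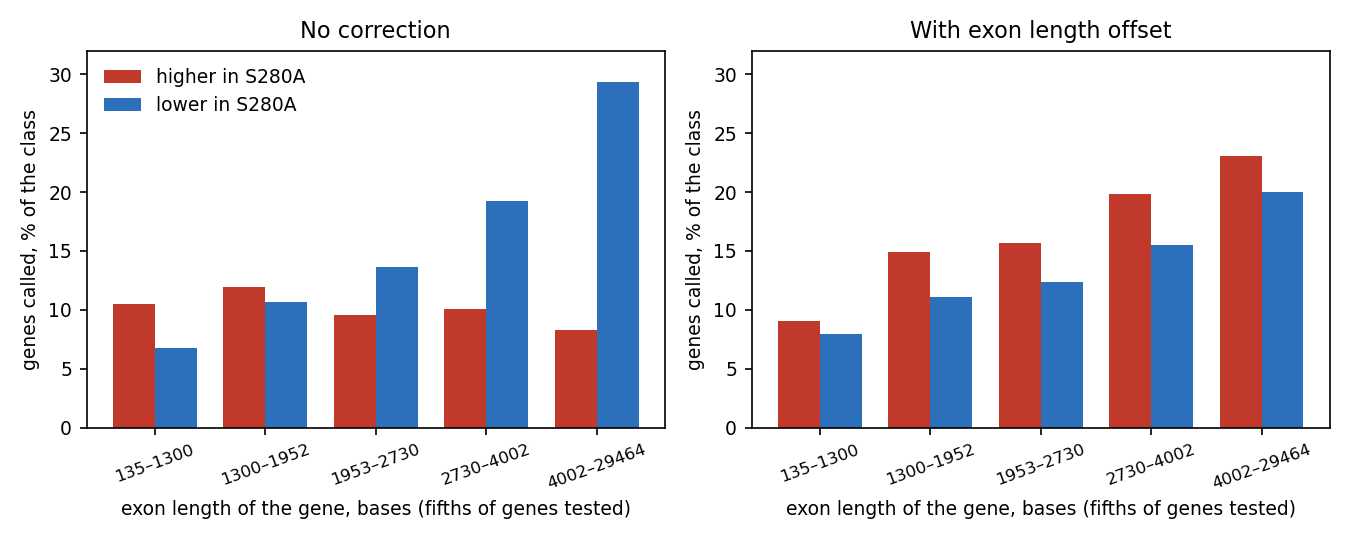
Share of genes that rose (red) or fell (blue) in S280A against WT (vertical axis, percent of the class) by exon length in 5 equal classes of all genes tested (horizontal axis, bases), as measured and with the exon length offset. The share that fell goes from 6.77% to 29.3% without the offset and from 7.98% to 20% with it.

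The receptor's partners and coregulators split by direction. Of 40 tested 7 rose and 12 fell (47.5% passed, against 26.0% of all genes), with a median of -0.12. This median was -0.04 without S280A replicate 2, and 0.11 with the exon length offset, where the median of all genes was 0.10. Rxra, the obligate partner of PPARα, was at 21.4 and 22.1 CPM in WT and 34.1 and 33.8 CPM in S280A (0.64 ± 0.14, adjusted p = 0.0114). The corepressor gene Ncor1 went from 109 and 111 CPM to 62.1 and 47.3 CPM (-1.01 ± 0.17). The corepressor subunit Tbl1xr1 (-1.54 ± 0.30), the mediator subunits Med13 (-1.21 ± 0.21) and Med1 (-0.70 ± 0.16), which bind or accompany nuclear receptors, and the acetyltransferase Kat2b (-1.58 ± 0.35) fell. Class II deacetylase genes Hdac5 (0.68 ± 0.16) and Hdac7 (0.48 ± 0.13) rose.

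Kinases that can act on the receptor were also examined. Gsk3a was at 62.7 and 73.9 CPM in WT and 79.8 and 90.5 CPM in S280A (0.32 ± 0.13, adjusted p = 0.096), and Gsk3b at 216 and 204 CPM and 195 and 168 CPM (-0.21 ± 0.11, adjusted p = 0.187). Neither passed. Over the list of GSK-3, Akt and insulin signalling 3 of 43 rose and 13 fell (37.2% passed, median -0.19, or -0.09 without S280A replicate 2). With the exon length offset 11 rose and 11 fell, with a median of -0.08, where that of all genes was 0.10. Akt1 rose by 0.48 ± 0.13. Both catalytic AMPK genes, Prkaa1 (-0.84 ± 0.16) and Prkaa2 (-1.38 ± 0.27), fell. In the clock 0 of 19 rose and 2 fell (10.5% passed), Clock (-1.33 ± 0.25) and Nr1d2 (-0.94 ± 0.22). The clock median was -0.11, and it was -0.09 without S280A replicate 2 and 0.07 with the offset.

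Matrix and contractile genes were among the most abundant that rose. Of 74 matrix genes 24 rose and 6 fell (40.5% passed, against 26.0% of all genes). The median was 0.31 (0.25 without S280A replicate 2). Col1a1, the main chain of type I collagen, was at 18968 and 22491 CPM in WT and 28394 and 34232 CPM in S280A (0.60 ± 0.15), and elastin, Eln, rose by 0.88 ± 0.20. The gelatinase gene Mmp2 was at 37.9 and 46.2 CPM in WT and 67.1 and 73.8 CPM in S280A (0.74 ± 0.16). Sparc (0.44 ± 0.13) and the collagen chaperone Serpinh1 (0.39 ± 0.12) rose. Postn, periostin, went the other way, from 2354 and 1948 CPM to 1474 and 1224 CPM (-0.67 ± 0.16), as did the crosslinking enzyme Lox (-0.61 ± 0.15), the proteoglycan Vcan (-0.58 ± 0.13) and Tgfb2 (-0.50 ± 0.13). The calls of Lox, Vcan and Tgfb2 were lost with the exon length offset, where Vcan was at -0.14.

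In the muscle list 7 of 46 rose and 3 fell (21.7% passed, against 26.0% of all genes). The median was 0.24, or 0.20 without S280A replicate 2. The actins Acta2 (0.67 ± 0.16) and Acta1 (0.92 ± 0.22) and the troponin gene Tnnc1 (0.73 ± 0.15) rose, while the muscle transcription factors Mef2a (-1.04 ± 0.20) and Mef2c (-1.11 ± 0.19) fell. Beta-actin, Actb, often used as a control gene, rose by 0.52 ± 0.14, and Cald1, which binds actin, went from 1342 and 1242 CPM to 719 and 546 CPM (-1.03 ± 0.19). Ankrd1, a cardiac stress gene (-0.32 ± 0.11), and the integrin subunit Itgb1 (-0.46 ± 0.12) fell, and both calls were lost with the offset.

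Protein synthesis and turnover genes were mixed. Cytosolic ribosomal proteins rose in 15 of 58 and fell in 2 (median 0.27, 0.22 without S280A replicate 2), with Rplp0 at 4074 and 4342 CPM in WT and 5970 and 8579 CPM in S280A (0.79 ± 0.18). Mitochondrial ribosomal proteins rose in 11 of 75 and fell in 2 (median 0.17, 0.13 without S280A replicate 2), with Mrpl37 at 0.64 ± 0.14. Of the cytosolic list 29.3% passed and of the mitochondrial list 17.3%, where 26.0% of all genes passed and 10.1% rose. Of 37 proteasome subunits 5 rose and 7 fell (32.4% passed, median 0.06 with and without S280A replicate 2). Psmd2 was at 0.48 ± 0.12 and the activator Psme4 at -1.12 ± 0.21. Among 44 chaperones 5 rose and 10 fell (34.1% passed), with a median of 0.08 (0.09 without S280A replicate 2). Cryab (0.59 ± 0.16) and Hspb1 (0.51 ± 0.15), both small heat shock proteins, were among those that rose. Chordc1 (-1.03 ± 0.19) and the Hsp70-family gene Hspa4 (-0.64 ± 0.14) were among those that fell.

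Stress and degradation lists were mixed in the same way. In the unfolded protein and integrated stress response 8 of 44 rose and 4 fell (27.3% passed, against 26.0% of all genes). The median was 0.18, or 0.15 without S280A replicate 2. The serine synthesis gene Phgdh was at 0.65 ± 0.15 and Hyou1 at 0.51 ± 0.13. In the antioxidant list 8 of 41 rose and 4 fell (29.3% passed, median 0.30, or 0.23 without S280A replicate 2). Gstm1, a glutathione transferase, was at 9.70 and 9.12 CPM in WT and 18.1 and 18 CPM in S280A (0.94 ± 0.17), while Slc7a11, the cystine importer, fell by 1.19 ± 0.20 and the master factor Nfe2l2 (NRF2) by 0.41 ± 0.12, a call lost with the exon length offset (adjusted p = 0.0644). Of 50 lysosomal genes 12 rose and 3 fell (median 0.27, 0.19 without S280A replicate 2), with the proton pump subunit Atp6v0a1 at 0.63 ± 0.12. Immediate early genes rose in 1 of 33, Klf2 (0.65 ± 0.18), and fell in 3 (12.1% passed), with Klf6 at -1.21 ± 0.25. Their median was 0.08, or 0.06 without S280A replicate 2 and -0.03 without WT replicate 1.

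Among genes with a mean of at least 1 CPM, an assigned symbol and at least 50% unique reads, which leaves out Agpat1, the largest rises were in genes of low abundance. Nxph4, a neurexophilin, was at 1.10 and 0.894 CPM in WT and 2.95 and 3.38 CPM in S280A (1.65 ± 0.41, adjusted p = 0.0175). The sulfite oxidase gene Suox rose by 1.27 ± 0.29 and Wnt4 by 1.23 ± 0.32. Nfkbil1, a gene of the major histocompatibility region, was at 7.85 and 11.0 CPM in WT and 19.3 and 23.3 CPM in S280A (1.18 ± 0.22). Also among the 12 largest were Calml4, Adamts15, Trpv4, Apc2, Aldoart2 and Card10, with log2 differences of 1.23 to 1.63. DESeq2 did not call Calml4 (adjusted p = 0.0781), Trpv4 (0.0854), Apc2 (0.0991) or Card10 (0.0807).

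The largest falls beyond the cytokine genes included Wdyhv1, a glutamine amidase, which went from 6.70 and 6.08 CPM to 0.772 and 1.05 CPM (-2.81 ± 0.38, adjusted p = 0.00569). Gbp3, an interferon-induced GTPase, was at 5.20 and 4.77 CPM in WT and 1.12 and 0.644 CPM in S280A (-2.47 ± 0.39). Fgfr1op (-2.03 ± 0.27), Haus6 (-2.03 ± 0.28) and Cntln (-2.45 ± 0.36), proteins of the centrosome and spindle, fell by a factor of about 4 or more. Ccdc18, Dcx and Zfp182 fell by 2.60 ± 0.72, 2.31 ± 0.58 and 2.09 ± 0.56 on the log2 scale. In the S280A libraries they stood at 0.0805 to 0.562 CPM, so these sizes rest on few reads.

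Intron reads gave a second count of the same libraries. Of 12988 genes tested on them 1 was called (0.0077%), the RNA feature 5S_rRNA_202, which was higher in S280A (2.29 ± 0.32, adjusted p = 0.0489) and is named after its value was seen. At an unadjusted p under 0.05 there were 1981. For 2888 genes called on exon reads and tested on intron reads the sign was the same in 2251 (77.9%), with median intron differences of 0.29 for those that rose and -0.34 for those that fell. Of 212 named genes that passed and were tested on intron reads, 36 had the opposite sign there, such as Gpi, at -0.21 on intron reads, and Cdkn1a, at -0.39. Across 9892 genes tested on both, the differences correlated at an r of 0.371, a description across genes from the same 4 libraries. Intron reads, at 14.2% to 15.8% of reads in these libraries, called 50 genes with a filter at 1 CPM and 428 with none.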

How the data were processed

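Libraries of poly(A) RNA were strand-specific and paired-end, with 15 PCR cycles, per the labels' protocols. Raw counts per gene were deposited in 1 table, as total exon, unique exon and intron reads by library, per the file headers. It also holds the authors' own tests, as p-values and a signed fold score, per the file headers, from which only calls and directions were used. The build is Rnor_6.0, per the submitters' processing notes. The sources used here do not give the aligner, the annotation or whether counting used strand, so reads of overlapping or antisense genes may not be told apart. Starts in the table count from 0 and are printed from 1.

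Total exon reads were tested in edgeR 4.0.16 (R 4.3.3) with filterByExpr (minimum count 10), TMM scaling and the quasi-likelihood test on all 8 libraries, 1 coefficient per group, 4 residual degrees of freedom, two-sided, at 0.05. CPM are TMM-scaled. A 95% interval is the log2 difference with its SE and the t distribution of the fit. The smallest library held 14018785 exon reads. PCR copies of 1 molecule were not examined, and any that were counted more than 1 time limit precision further. None of the 4 libraries compared was a duplicate of another. The scripts were tested on simulated data.

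The comparison, the gene lists and the rule for named genes were chosen with earlier results of these data known. Of 1464 list symbols 1387 matched a feature, some by RefSeq synonyms. Named genes are Ppara, 14 genes of lipid metabolism and GSK-3, the 12 largest rises and falls with a mean of at least 1 CPM, no overlap of groups, an assigned symbol and 50% unique reads, the 8 most abundant of the same kind per direction, and list members with the smallest adjusted p, up to 6 per direction. Not all that the rule allows are printed, and some genes are not reported here. Of the rest of each list, the few printed that did not pass were chosen for their role. Alternatives were RLE factors, 2 other filters, DESeq2 1.42.0, 4 libraries only, a replicate block, a 1.5-fold threshold, lane, unique reads, exon length, thinning and leaving out each library. The fit of lane 2 alone was chosen after seeing the data.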

Additional observations from a re-analysis of the deposited data

How the results depend on the processing

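All libraries gave 3226 genes, 1250 higher and 1976 lower. The 1.5-fold threshold gave 20 (1 and 19), lane as a covariate 993 (118 and 875), and lane 2 alone 1704 (397 and 1307). The exon length offset gave 2049 higher. Leaving out 1 library at a time gave 6 to 3859 genes, 1 to 1649 higher and 5 to 2210 lower. The 3 lowest counts were those without S280A replicate 2 (6), without WT replicate 1 (7) and without WT replicate 2 (1309). Without S280D replicate 1 the test called 790 higher. On intron reads, where all libraries gave 1 gene, no filter gave 428, the filter at 1 CPM 50 and the 4 libraries alone 44, and leaving out 1 library gave 1 to 413. RLE factors, DESeq2, unique reads and thinning kept the exon counts within 1.5 times. The cause of these shifts was not tested.

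The replicate block gave 2859 genes. The deviations of same-numbered WT and S280A libraries correlated at 0.118 across genes. With 2 pairs this cannot show whether same-numbered libraries were made together, and no label states it. The main fit did not pair them. No named gene that passed changed direction in any of these settings of the exon reads, while 36 of 212 had the opposite sign on intron reads. Among the genes printed, DESeq2 lost the calls of Calml4, Trpv4, Apc2 and Card10. Depth limits genes under about 1 CPM, such as Calml4, whose log2 difference of 1.63 had an SE of 0.53.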
